A study of Homo sapiens with 2 samples.

Results

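The family of miR-148 and miR-152 consists of the microRNAs miR-148a, miR-148b and miR-152, and both arms of each hairpin were examined, giving 6 mature microRNAs of the 2656 named in the counts table. The members were chosen by name, as hsa-miR-148a-3p, hsa-miR-148a-5p, hsa-miR-148b-3p, hsa-miR-148b-5p, hsa-miR-152-3p and hsa-miR-152-5p, and all 6 were present, each under a single precursor. Small RNA was sequenced from MDA-MB-231 cells, a long-established human line of triple-negative breast cancer. One culture carried an shRNA named shELOVL5, against the polyunsaturated fatty acid elongase ELOVL5, and the other carried the control shRNA shLuc. Both libraries therefore came from shRNA-transduced cells, with 1 library per condition, and both cultures grew in DMEM with fetal bovine serum. Whether the transduced cells were a pool or a clone was not stated in the labels. The ELOVL5 transcript itself is not measured by microRNA counts, so the knockdown was not checked here.

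MicroRNAs are cut from hairpin precursors, and one arm of the hairpin is usually retained as the guide strand while the other is mostly lost. The guide pairs with messenger RNAs mainly through its seed, bases 2 to 8, and lowers their translation and stability. In this family the 3p arm is the usual guide. miR-148a is known as a repressor of ABCA1, a cholesterol exporter. miR-148a and miR-152 are known to target the DNA methyltransferase gene DNMT1, and miR-148b is known as a suppressor of breast cancer metastasis.

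The mature 3p arms are shown first because their common seed, in capitals, defines the family and because the remaining letters decide whether reads of the members can be told apart. The sequences are from RefSeq on GRCh38.p14, written 5′ to 3′.
hsa-miR-148a-3p: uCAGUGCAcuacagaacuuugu
hsa-miR-148b-3p: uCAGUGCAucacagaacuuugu
hsa-miR-152-3p: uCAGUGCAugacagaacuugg

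Counted from 1 at the 5′ end, hsa-miR-148b-3p differs from hsa-miR-148a-3p at 2 of 22 positions, C9U and U10C. Compared with hsa-miR-148a-3p, hsa-miR-152-3p has 3 differences over 21 positions (C9U, U10G and U20G) and is 1 base shorter. hsa-miR-152-3p differs from hsa-miR-148b-3p by C10G and U20G. All differences lie outside the seed. With so few differing bases, reads may have been shared between members, since neither the number of mismatches allowed nor the handling of ambiguous reads was given in the sources used here. Of the 2656 names, 2367 were matched to a RefSeq sequence, and these 3 were the only matched ones with the seed CAGUGCA. Another 10 of the matched names held the 6 letters AGUGCA in bases 2 to 8, at another offset or beside other letters. Among these 10 were hsa-miR-454-3p (2324 counts in shELOVL5 and 2344 in shLuc) and hsa-miR-130b-3p (508 in shELOVL5 and 529 in shLuc). Names without a matched sequence were not searched, so the 3 and the 10 may leave out other microRNAs with these letters.

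For the opposite strand, the 5p arms are shown because they begin with another base and carry other seeds, again in capitals. The mature entries used here covered hsa-miR-148b-5p and hsa-miR-152-5p.
hsa-miR-148b-5p: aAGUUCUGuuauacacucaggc
hsa-miR-152-5p: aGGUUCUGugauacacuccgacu

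Both of these 5p arms start with A, whereas all 3 of the 3p arms start with U. The hairpins are printed because the share of counts on each arm is compared further on, with the mature 3p arm in capitals.
MIR148A: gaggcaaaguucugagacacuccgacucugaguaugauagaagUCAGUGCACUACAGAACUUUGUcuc
MIR148B: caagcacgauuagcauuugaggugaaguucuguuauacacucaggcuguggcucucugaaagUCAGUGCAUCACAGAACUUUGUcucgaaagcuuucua
MIR152: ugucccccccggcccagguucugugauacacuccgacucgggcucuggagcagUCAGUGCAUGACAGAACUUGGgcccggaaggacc

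The 3 hairpins lie on different chromosomes of GRCh38. MIR148A lies on the minus strand of chromosome 7, at 25949919 to 25949986, and overlaps no other gene of GENCODE release 29. Its nearest protein-coding gene, NFE2L3, is 202 kb away. MIR148B lies on the plus strand of chromosome 12, at 54337216 to 54337314, in an intron of COPZ1 and of the overlapping non-coding gene AC078778.2, both on the same strand. MIR152 lies on the minus strand of chromosome 17, at 48037161 to 48037247, in an intron of COPZ2 on the same strand. COPZ1 and COPZ2 are paralogs that encode the zeta subunit of the coatomer, the coat of vesicles between the Golgi and the endoplasmic reticulum. MIR148B and MIR152 thus sit in paralogous host genes, and MIR148A stands alone. Host transcripts were not measured.

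The shELOVL5 library held 6811811 microRNA counts and the shLuc library 7109272. The 5 microRNAs listed as high in mesenchymal-like basal breast cancer lines took 450688 CPM in shELOVL5 and 461049 CPM in shLuc, where CPM is counts per 1000000 after TMM scaling of library size. The 5 epithelial microRNAs together had 319 CPM in shELOVL5 and 258 CPM in shLuc. Most of this was hsa-miR-200b-3p (236 CPM in shELOVL5 and 180 CPM in shLuc) and hsa-miR-200c-3p (65.2 CPM in shELOVL5 and 66.5 CPM in shLuc). Of 6 blood cell microRNAs 2 were at 0 in both libraries, and the summed list had 319 CPM in shELOVL5 and 398 CPM in shLuc, nearly all from hsa-miR-486-5p (311 CPM in shELOVL5 and 397 CPM in shLuc). Of the rarer blood markers, hsa-miR-142-3p had 45 counts in shELOVL5 and 2 in shLuc, hsa-miR-451a had 6 in shELOVL5 and 2 in shLuc, and hsa-miR-150-5p had 1 in shELOVL5 and 0 in shLuc. Liver and pancreas, tissues where miR-148a is known to be abundant, had summed markers of 7.68 and 8.41 CPM in shELOVL5, and of 7.83 and 11.8 CPM in shLuc. The stromal and endothelial list had 752 CPM in shELOVL5 and 628 CPM in shLuc, of which hsa-miR-126-3p gave 750.3 and 626 CPM. The part of these cells or markers in the family's values was not tested.

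The family supplied 0.308% of all microRNA counts in shELOVL5 and 0.310% in shLuc. hsa-miR-148a-3p had 9559 counts in shELOVL5, or 1386 CPM (exact Poisson 95% interval 1358 to 1414), and 8695 counts in shLuc, or 1238 CPM (1212 to 1265). hsa-miR-148b-3p had 9389 counts in shELOVL5, or 1361 CPM (1334 to 1389), and 11100 counts in shLuc, or 1581 CPM (1552 to 1611). These 2 guides were of similar abundance, ranking 57 and 58 of all microRNAs in shELOVL5 and 62 and 55 in shLuc. hsa-miR-152-3p, the least abundant guide, had 1600 counts in shELOVL5, or 232 CPM (221 to 244), and 1822 counts in shLuc, or 259 CPM (248 to 272). It ranked 120 in shELOVL5 and 116 in shLuc.

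The 5p arms, which are the usual passenger strands, were scarce. hsa-miR-148b-5p had 225 counts in shELOVL5, or 32.6 CPM (28.5 to 37.2), and 238 counts in shLuc, or 33.9 CPM (29.7 to 38.5). hsa-miR-148a-5p had 165 counts in shELOVL5, or 23.9 CPM (20.4 to 27.9), and 145 counts in shLuc, or 20.7 CPM (17.4 to 24.3). The rarest member was hsa-miR-152-5p, with 29 counts in shELOVL5, or 4.20 CPM (2.82 to 6.04), and 34 counts in shLuc, or 4.84 CPM (3.35 to 6.77). From the highest level down, the order in shELOVL5 was miR-148a-3p, miR-148b-3p, miR-152-3p, miR-148b-5p, miR-148a-5p and miR-152-5p. In shLuc the first 2 changed places and the rest kept this order. In shELOVL5 the intervals of the first 2 overlapped, and all other neighbours in either library had separate intervals. The intervals cover counting error only, and levels of different sequences also carry the ligation bias of small RNA libraries. Mature lengths were 21 to 23 bases for the 5 members whose mature sequences are printed, and CPM was not divided by length.

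**Figure D1:**
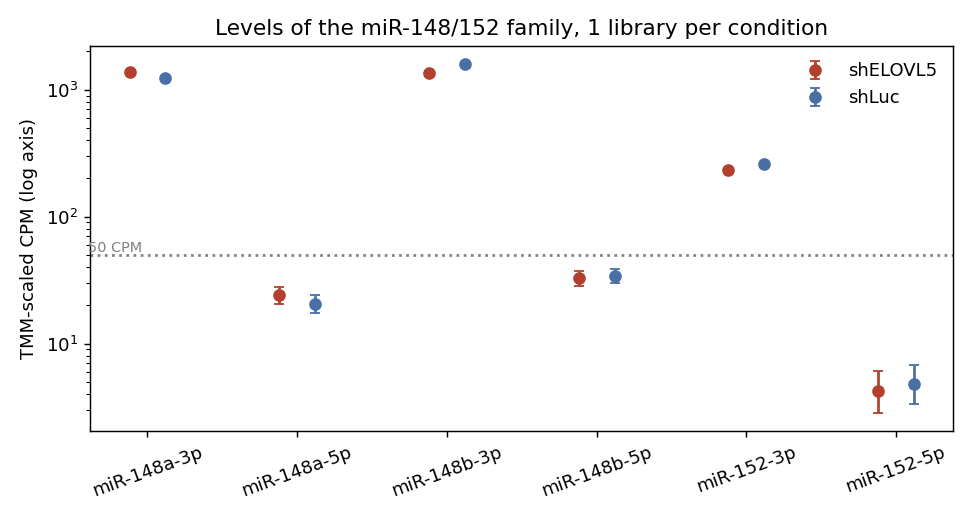
TMM-scaled CPM of the 6 family members on a log axis, with shELOVL5 in red and shLuc in blue, 1 library each. Bars are exact Poisson 95% intervals, which cover counting error only, and the dotted line marks 50 CPM. The 3p arms stand between 232 and 1581 CPM and the 5p arms between 4.20 and 33.9 CPM.

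The comparison of shELOVL5 with shLuc asked whether the family's microRNAs differed with the ELOVL5 shRNA. The guides did not move as one. hsa-miR-148a-3p was higher in shELOVL5, with a ratio of 1.12 (95% counting interval 1.09 to 1.15, log2 ratio 0.16). hsa-miR-148b-3p was lower in shELOVL5, at 0.861 (0.838 to 0.885, log2 ratio -0.22). hsa-miR-152-3p was also lower, at 0.894 (0.835 to 0.957, log2 ratio -0.16). With 1 library per condition there is no replicate check and no p-value, and these directions describe the 2 libraries.

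None of the differences was large beside those of other microRNAs. A microRNA was called expressed at a mean of at least 50 CPM, here without TMM scaling, and at least 100 counts over both libraries. This held for 191 microRNAs and for 3 members, the 3p arms. None of these 3 was at least 2-fold different, against 1.57% of the 191, and none was at least 1.5-fold different, against 3.66%. A counting interval that leaves out a ratio of 1 was common at this depth, and 73.8% of the 191 had one, with 31.9% above 1 and 41.9% below. The 3 guides, with 1 above and 2 below, stood as most expressed microRNAs did on that measure. The median absolute log2 ratio of the 191 was 0.18, close to the sizes seen in the family. Among the 191, 103 lay farther from a ratio of 1 than hsa-miR-148a-3p, 78 lay farther than hsa-miR-148b-3p and 106 lay farther than hsa-miR-152-3p.

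The 5p arms lay below the expression limit and are described by their counts. hsa-miR-148a-5p had a ratio of 1.16 (0.921 to 1.46), on the same side of 1 as its 3p arm. For hsa-miR-148b-5p the ratio was 0.962 (0.798 to 1.16), and for hsa-miR-152-5p it was 0.868 (0.510 to 1.47), each on the same side as its own 3p arm. All 3 of these intervals include 1, so the 5p arms give no direction beyond counting error.

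**Figure D2:**
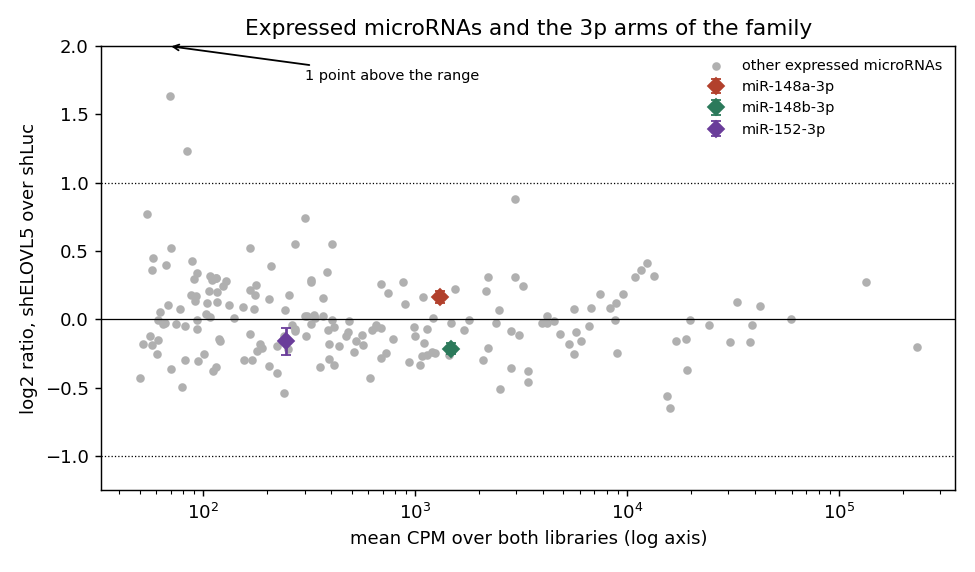
Log2 ratio of CPM, shELOVL5 over shLuc, against mean CPM without TMM scaling on a log axis for the 191 expressed microRNAs. Diamonds are the 3p arms of the family with 95% counting intervals, dotted lines mark a 2-fold difference, and 1 microRNA with a log2 ratio of 7.06 lies above the plotted range. The 3 diamonds lie between -0.22 and 0.16, inside the cloud of the other microRNAs.

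Because the guides share a seed, their summed level was also compared. The 3p arms together had 20548 counts in shELOVL5, or 2979 CPM, and 21617 counts in shLuc, or 3079 CPM, a ratio of 0.968 (0.949 to 0.986, log2 ratio -0.05). The sum thus differed less than any single guide did. This small difference depends on the scaling, with a log2 ratio of -0.01 when libraries were scaled by their totals.

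The make-up of this seed pool differed between the libraries. hsa-miR-148a-3p made up 46.5% of the family's 3p counts in shELOVL5 (exact binomial 95% interval 45.8 to 47.2%) and 40.2% in shLuc (39.6 to 40.9%). hsa-miR-148b-3p made up 45.7% in shELOVL5 (45.0 to 46.4%) and 51.3% in shLuc (50.7 to 52.0%). The share of hsa-miR-152-3p was 7.79% in shELOVL5 (7.42 to 8.16%) and 8.43% in shLuc (8.06 to 8.81%), with intervals that overlap. Overlap of separate intervals does not decide whether these shares differ beyond counting error, and their difference was given no interval of its own. In shELOVL5 the ratio of miR-148a-3p to miR-148b-3p counts was 1.02 (0.989 to 1.05), and in shLuc it was 0.783 (0.762 to 0.806). The guides of the closest sequence were therefore level with each other in shELOVL5, within counting error, while hsa-miR-148b-3p was the more abundant of them in shLuc.

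**Figure D3:**
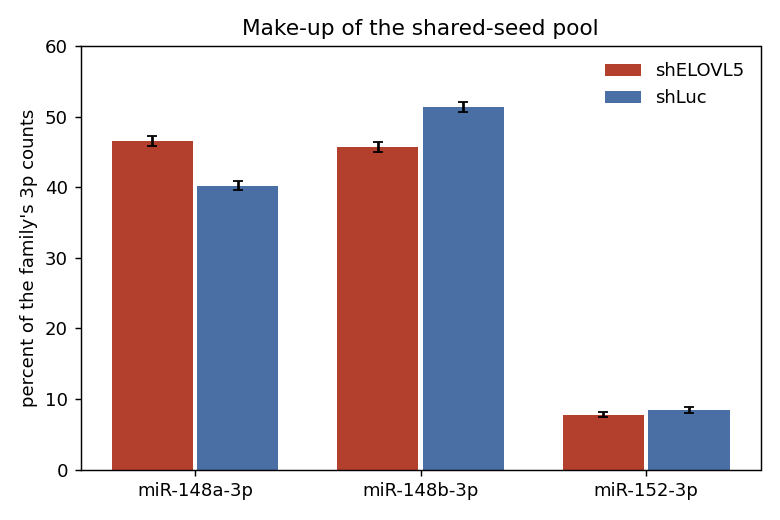
Percent of the family's 3p counts given by each guide, with shELOVL5 in red and shLuc in blue, 1 library each. Bars start at 0 and whiskers are exact binomial 95% intervals of counting error. hsa-miR-148a-3p stands at 46.5% in shELOVL5 and 40.2% in shLuc, and hsa-miR-148b-3p at 45.7% in shELOVL5 and 51.3% in shLuc.

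The members were then set against each other by dividing their shELOVL5 over shLuc ratios, a measure in which the scaling of the libraries cancels. For hsa-miR-148a-3p over hsa-miR-148b-3p this was 1.30 (exact conditional 95% interval 1.249 to 1.353, log2 difference 0.38). For hsa-miR-148a-3p over hsa-miR-152-3p it was 1.252 (1.163 to 1.348, log2 difference 0.32). hsa-miR-148b-3p and hsa-miR-152-3p, the members in introns of the COPZ genes, differed by a factor of 0.963 (0.895 to 1.04), an interval that includes 1. Over all 18145 pairs of expressed microRNAs the median absolute log2 difference was 0.25, and 31.4% of pairs lay farther apart than hsa-miR-148a-3p and hsa-miR-148b-3p. A gap of that size between members was thus within the usual range of these libraries. The pair hsa-miR-148b-3p and hsa-miR-152-3p was closer, with 88.3% of pairs farther apart.

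The balance of the arms was examined for each hairpin, since the arms are made from the same precursor and their ratio does not depend on library scaling. The 5p arm took 1.70% of the MIR148A hairpin's counts in shELOVL5 (1.45 to 1.97%) and 1.64% in shLuc (1.39 to 1.93%). For MIR148B it took 2.34% in shELOVL5 (2.05 to 2.66%) and 2.099% in shLuc (1.84 to 2.38%). The MIR152 hairpin had 1.78% on its 5p arm in shELOVL5 (1.20 to 2.55%) and 1.83% in shLuc (1.27 to 2.55%). The 3p arm was the major one in all 3 hairpins and both libraries, and the intervals of the libraries overlapped for each hairpin.

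The log2 change of the 5p-to-3p ratio, shELOVL5 over shLuc, was 0.05 for MIR148A (-0.28 to 0.38), 0.16 for MIR148B (-0.11 to 0.43) and -0.04 for MIR152 (-0.82 to 0.72). All 3 intervals include 0. Over the 185 hairpins that had 100 or more counts in all, the arm ratio differed by at least 1.5-fold in 28.1%, and its counting interval left out 1 in 29.7%. Some of the 185 had few counts on the minor arm, such as hsa-mir-548o-2 with 1 in shELOVL5 and 6 in shLuc. Others, such as hsa-let-7a-1 and hsa-let-7a-2, have the same major arm. No allowance was made for either in the shares and ranks given here. None of the 3 family hairpins met either rule. Their changes were also small in rank, with 167 of the 185 hairpins farther from 0 than MIR148A, 134 farther than MIR148B and 171 farther than MIR152. The MIR152 interval is the widest of the 3, from 0.568-fold to 1.65-fold, with 29 counts on its 5p arm in shELOVL5 and 34 in shLuc, and a shift inside it was not detectable at this depth. The family's arm shares lay below the median of the 185 hairpins, whose minor arm took 3.97% in shELOVL5 and 4.05% in shLuc.

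**Figure D4:**
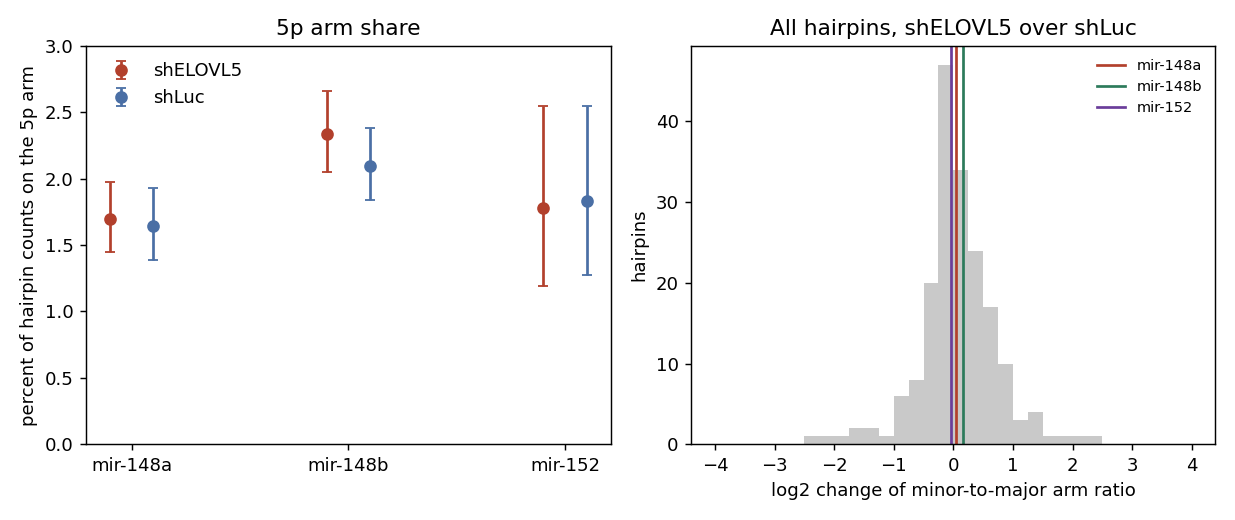
Left, percent of each family hairpin's counts on the 5p arm, with exact binomial 95% intervals, shELOVL5 in red and shLuc in blue, 1 library each. Right, log2 change of the minor-to-major arm ratio, shELOVL5 over shLuc, for 185 hairpins in grey, with the family's hairpins as lines at 0.05, 0.16 and -0.04, near the centre of the distribution.

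The nearest expressed microRNAs in level over both libraries were found by the distance between log2 CPM values over the 2 libraries, a measure that includes the ratio between them. For hsa-miR-148a-3p these were hsa-miR-30e-5p at a distance of 0.20, hsa-miR-140-3p at 0.27 and hsa-miR-92b-3p at 0.31. hsa-miR-30e-5p had 8360 counts in shELOVL5 and 8451 in shLuc, a ratio of 1.01 (0.977 to 1.04), and none of the 3 had a ratio as high as that of hsa-miR-148a-3p. For hsa-miR-148b-3p they were hsa-miR-224-5p at 0.06, hsa-miR-140-3p at 0.13 and hsa-miR-106b-3p at 0.30. hsa-miR-224-5p had 9016 counts in shELOVL5 and 11017 in shLuc, a ratio of 0.833 (0.810 to 0.857), nearly the values of hsa-miR-148b-3p.

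Other microRNAs linked to the known roles of the family were described from 3 lists. Over all 191 expressed microRNAs the median log2 ratio was -0.03, and 31.9% had counting intervals above 1 and 41.9% below. Of 16 microRNAs known for roles in cholesterol metabolism, 9 were expressed, 2 with intervals above 1 and 5 below, and their median log2 ratio was -0.12. The most abundant was hsa-miR-26a-5p, with a ratio of 0.891 (0.885 to 0.896). Next came hsa-miR-27b-3p, whose ratio was 0.772 (0.766 to 0.778), and its paralog hsa-miR-27a-3p, whose ratio was 1.238 (1.226 to 1.251). The members of this list went both ways, as the 191 expressed microRNAs did.

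Of 6 microRNAs known to target DNA methyltransferase genes or linked to them, 4 were expressed, 3 with intervals above 1 (31.9% of the 191) and 1 below (41.9%), and their median log2 ratio was 0.31. With a limit of 10 CPM in place of 50, all 6 were admitted and the median was 0.22. The 3 above 1 included the paralogs hsa-miR-29a-3p and hsa-miR-29b-3p, the latter at 1.43 (1.32 to 1.56). hsa-miR-29a-3p stood at 1.28 (1.27 to 1.30), hsa-miR-126-3p at 1.199 (1.151 to 1.248) and hsa-miR-185-5p at 0.919 (0.865 to 0.977). The last also belongs to the cholesterol microRNAs described above, as 1 of the 5 below 1. Of 10 further microRNAs known to suppress breast cancer metastasis, 4 were expressed, 3 with intervals above 1 (31.9% of the 191) and 0 below (41.9%), and their median log2 ratio was 0.50. With a limit of 10 CPM in place of 50, 7 were admitted and the median was 0.26. hsa-miR-146a-5p stood at 1.84 (1.80 to 1.88), hsa-miR-126-3p is in both lists, and hsa-miR-146b-5p, close in sequence to hsa-miR-146a-5p, at 1.67 (1.57 to 1.78). The family's guides were split, with hsa-miR-148b-3p, known as a metastasis suppressor, at 0.861, hsa-miR-152-3p at 0.894 and hsa-miR-148a-3p at 1.12. No expressed member of the 3 lists was at least 2-fold different, which was also rare over the 191, at 1.57%.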

How the data were processed

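RNA was isolated with the Qiagen miRNeasy chemistry and converted with NEBNext small RNA reagents, per the labels' protocols. The extraction text speaks of tumor material, while the sample labels name the cell line. The submitters' processing notes list Bowtie 1.1.1, cutadapt and FastQC 0.11.9 but give no settings. Which program, annotation release and build made the counts was not given in the sources used here. Deposited values are whole-number counts for each precursor and mature arm, which the authors did not normalize. No molecular identifiers are described, so PCR copies may be counted more than once.

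The table held 2886 lines. For the 166 mature microRNAs listed under several precursors the highest value was kept. TMM factors came from edgeR 4.0.16 in R 4.3.3, and were 1.01 for shELOVL5 and 0.988 for shLuc. Ratios are shELOVL5 over shLuc, with exact Clopper-Pearson 95% intervals of one library's share of both counts. Intervals for arm ratios and for pairs of members are exact conditional intervals of the odds ratio (SciPy 1.17.1). All intervals cover counting error only. In each of the 185 hairpins the minor arm had a count in both libraries, and precursors with the same pair of arms counted once. The 6 members, the lists and the rules were chosen with earlier results of these data known. Named microRNAs were the members, those with their seed, the 3 nearest in level to each of the 2 most abundant guides, and the 3 most abundant expressed members of each list. hsa-miR-454-3p, hsa-miR-130b-3p, hsa-miR-29b-3p, hsa-miR-200b-3p and hsa-miR-200c-3p were named after their values were seen. The scripts were tested on simulated data. Alternatives were size factors from DESeq2 1.42.0, total count scaling, other expression limits and size rules, 5 CPM added to both values, 0.5 counts added to each arm, the sum over precursor rows, and thinning shLuc to the depth of shELOVL5. The DESeq2 factors were 1 for both libraries, so that alternative compared counts without scaling for depth.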

Additional observations from a re-analysis of the deposited data

How the results depend on the processing

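No paired analysis was possible because shELOVL5 and shLuc had a single library apiece, which also meant that none could be left out. Of 113 values recomputed under the alternatives, 102 stayed within the counting interval or within 1.5 times the count, or within 0.1 for the median of a list, and 11 did not. Some of the 102 were fixed in advance. Each member had a single precursor, so summing precursor rows could not change its arm share or arm ratio. Thinning shLuc left the arm shares in shELOVL5 untouched. The sign of the log2 ratio held for all 6 members under every scaling, the sum over precursor rows, 5 CPM added to both values and thinning. It ranged from 0.14 to 0.20 for hsa-miR-148a-3p, from -0.24 to -0.18 for hsa-miR-148b-3p and from -0.19 to -0.13 for hsa-miR-152-3p. Total count scaling shifted every log2 ratio by 0.036 and DESeq2 by -0.026, and the summed 3p arms moved to -0.012 under the first. The count of family members at least 2-fold different stayed at 0 in each direction under every setting. The scaling shifts were too small to bring any member to a 2-fold difference. Over all expressed microRNAs the counts of at least 2-fold higher and lower ones, 3 and 0, became 5 and 0 with a mean of at least 10 CPM, 0 and 0 with at least 1000 CPM, 120 and 77 with at least 1 count in each library, 6 and 1 with a 1.5-fold rule, and 19 and 19 with the least strict size rule tried. Hairpins at least 1.5-fold different in arm ratio numbered 26 of 125 with at least 1000 counts, against 52 of 185. The median of the metastasis-suppressing list was 0.26, over 7 members, at the 10 CPM limit. Each of these counts follows from the features a rule admits or from the size of difference it asks for. Depth limits the 5p arms, above all hsa-miR-152-5p, and the lack of replicates limits every comparison.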
